A study of Populus alba x Populus glandulosa with 12 samples.

Results

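Leaf RNA of drought-treated 84K poplar was compared between day 3 and day 0 of a drought series. 84K, a cross between Populus alba and Populus glandulosa, is widely used as a transformable laboratory tree. The day 3 group held 3 libraries of wild-type leaves after 3 days of drought, and the day 0 group, labelled CK as the control, held 3 libraries of wild-type leaves at the start of the same series. All groups share the wild-type genotype and the drought label, and the series goes on to days 6 and 9, with 12 libraries in all. The genes described are those with an FPKM (fragments mapped to a gene, scaled to its length and to all mapped fragments) of at least 1 in 3 or more of these 6 libraries. That rule took 38617 of the 85392 gene models in the deposited table, and it used no difference between the days. The authors' table names genes by KEGG orthology (KO) names, KEGG pathways and Gene Ontology (GO) terms, and 20352 of the 38617 genes carried no KO name.

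Leaves that lose water make abscisic acid, a hormone that closes stomata and starts protective gene programmes. Early responses of this kind are known to include compatible sugars and inositol derivatives, a thicker wax layer, and a slowing of cell expansion before visible wilting. Photosynthesis genes, wall-building genes and ribosomal protein genes are often lowered together when growth slows.

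The tissue label fitted its markers: the 31 tested genes for the Rubisco small subunit, photosystem subunits psaG and psbO and the antenna proteins LHCB1 and LHCB2 summed to 8529, 9808 and 8826 FPKM on day 3, against 18275, 18578 and 18818 FPKM on day 0. These markers of mesophyll fell themselves, by a median log2 change of -1.02 with 29 of 31 lower. The 18 tested guard cell markers summed to 72.7, 78 and 79.9 FPKM on day 3, against 63, 60.8 and 65.5 FPKM on day 0. They went in different directions. FAMA was lower in 3 of 4 genes and higher in 0. Potassium channels (AKT and KAT) were higher in 6 of 11 and lower in 2, and SLAC1 was higher in 1 of 3. The 91 tested vascular markers, which include cellulose synthases and laccases that other cells also express, summed to 909, 861 and 861 FPKM on day 3, against 1045, 1030.5 and 1047 FPKM on day 0. In bulk leaf RNA, fewer cells of a type and less RNA per cell cannot be told apart. The 67 tested genes with names of the plastid genome summed to 702, 653 and 749.8 FPKM on day 3, against 830.3, 957 and 832 FPKM on day 0. Of these genes 62 were not called, 2 were higher and 3 lower, with a median log2 change of -0.003. The 12 genes named atpA, atpF or atpI summed to 425.5, 439.5 and 429.4 FPKM on day 3, against 601.9, 651.1 and 622.4 FPKM on day 0. The part of these marker shifts in the results below was not tested.

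Summed FPKM lay between 717938 and 732119 per library on day 3 and between 727785 and 730723 on day 0, and 37693 to 37765 genes on day 3 and 37968 to 38140 genes on day 0 reached an FPKM of 1. The 10 most abundant genes took 5.13% to 5.4% of the summed FPKM on day 3 and 3.68% to 3.75% on day 0. Pearson's r across the tested genes was between 0.887 and 0.892 for a day 3 with a day 0 library, 0.974 within day 3 and 0.975 to 0.977 within day 0. Genes are not independent replicates, so these r describe the libraries. Each day has a batch label of its own, and no watered plants were sampled on day 3, so drought, batch and elapsed time cannot be told apart. The replicates are called biological in the series text, without word on whether each is a separate plant. A p-value here thus rests only on the spread between such replicates, which may be technical, and all 12 libraries share 1 estimate of it, so the spread on days 6 and 9 enters too.

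Changes on day 3 were frequent and mostly small. With limma on log2(FPKM + 1), 8953 of 38617 genes (23.2%) were higher on day 3 at an adjusted p under 0.05 and 10310 (26.7%) were lower, so 49.9% changed. "Rose" and "fell" below refer to that call, and a log2 change is day 3 minus day 0 of log2(FPKM + 1), a scale that understates changes of low genes. The median log2 change of all tested genes was -0.02. The values of the 3 libraries of day 3 and the 3 of day 0 did not overlap for 59.1% of the genes. A log2 change of at least 1 was reached by 1699 of the rises and 1789 of the falls, and of at least 2 by 400 rises and 296 falls. At a log2 change of at least 4 there were 45 rises and 17 falls, so the far end held more rises although falls were the more numerous overall. That majority of falls depends on scaling: with median-ratio scaling between libraries 9738 genes rose and 9145 fell, and the median of all genes was 0.01. Genes with a mean of at least 5 FPKM on the higher day were called more often (26.4% higher and 30.3% lower) than genes under 5 FPKM on both days (17.2% and 19.9%).

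**Figure D1:**
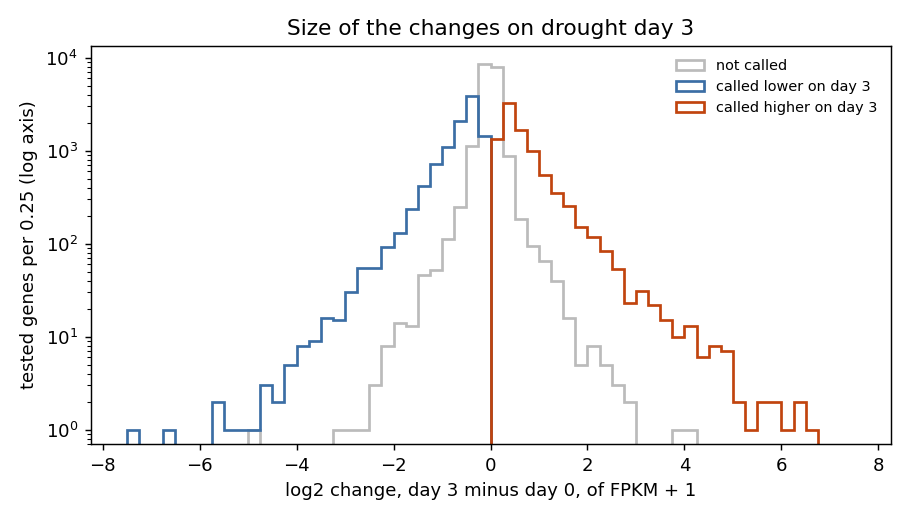
Log2 change of FPKM + 1, day 3 minus day 0, for the 38617 tested genes, counted per step of 0.25 on a log axis and drawn for genes called higher, called lower and not called. Calls reach beyond a change of 5 in either direction, while most called genes lie within 1 of zero.

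Genes with and without a KO name were called about as often. Of 18265 genes with a KO name, 4274 rose and 4805 fell, and of 20352 without one, 4679 rose and 5505 fell. Genes without a KO name held 1004 of the 1699 rises and 1172 of the 1789 falls of at least 1 on the log2 scale. Of 5867 tested genes with neither a KO name nor a GO term, 1350 rose and 1470 fell. Among genes whose IDs begin with Pag.A, 4570 of 19929 rose and 5269 fell, and among those beginning with Pag.B 4383 of 18688 rose and 5041 fell.

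The 12 largest rises of genes with a KO name, taking 1 gene per KO name whose days did not overlap and whose higher day averaged 5 FPKM or more, centred on abscisic acid, sugars, redox proteins, iron storage and wax. Beta-carotene hydroxylase (crtZ), which makes the xanthophyll precursors of abscisic acid, led them: Pag.B04G000763.v3.1 had 100.3, 97.03 and 86.95 FPKM on day 3, against 0.45, 0.37 and 0.59 FPKM on day 0, a log2 change of 6.02 (SE 0.065, limma adjusted p of 2.53e-14). All 6 tested crtZ genes of 8 in the table rose, with a median log2 change of 3.64. NCED, the dioxygenase of the committed step of abscisic acid synthesis, came next: Pag.B11G000660.v3.1 had 96.5, 91.97 and 94.95 FPKM on day 3, against 0.73, 1.17 and 1.23 FPKM on day 0, a log2 change of 5.56 (SE 0.081, limma adjusted p of 2.27e-13). In both genes every day 3 library stood far above every day 0 library. Among 8 tested NCED genes 4 rose and 3 fell, and the aldehyde oxidase AAO3, of the last step of the synthesis, fell in all 4 tested genes, with a median log2 change of -1.01. An HD-ZIP transcription factor followed, for which Pag.B14G000966.v3.1 had 222, 232 and 224 FPKM on day 3, against 5.47, 5.07 and 4.85 FPKM on day 0. A PP2C phosphatase, of the family that restrains abscisic acid signalling, rose by 4.79 on the log2 scale (Pag.A09G000383.v3.1), and 24 of 27 tested PP2C genes rose while none of them fell.

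The other large rises of genes with a KO name had low or moderate levels on day 0. Nucleoredoxin NXN Pag.A02G002608.v3.1 had 171, 169 and 176 FPKM on day 3, against 5.48, 6.39 and 6.40 FPKM on day 0. All 8 tested NXN genes rose, with a median log2 change of 1.8. A glutaredoxin, Pag.A12G001798.v3.1, had 35.3, 30.5 and 24.9 FPKM on day 3, against 0.29, 0.35 and 0.51 FPKM on day 0. Galactinol synthase GOLS Pag.B10G001423.v3.1 rose by 4.61, the SWEET sugar carrier Pag.A01G000814.v3.1 by 4.34, and Pag.B06G001593.v3.1, listed only under the KO number K22395 and with the GO term FAD binding, by 4.32 on the log2 scale. Days without overlap were a condition of choosing these genes. Of 14 tested GOLS genes 10 rose and 4 fell, and of 18 SWEET genes 6 rose and 6 fell.

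The 12 falls chosen in the same way included wall and growth genes. The peroxiredoxin PRDX6 Pag.A08G001560.v3.1 had 21.6, 24.5 and 23.4 FPKM on day 3, against 539, 556 and 573 FPKM on day 0, a log2 change of -4.53 (SE 0.054, limma adjusted p of 4.22e-14). The xyloglucan:xyloglucosyl transferase (E2.4.1.207) Pag.B19G001494.v3.1 had 4.52, 3.64 and 3.48 FPKM on day 3, against 89.9, 91.8 and 95.5 FPKM on day 0. A pectinesterase, Pag.A06G001614.v3.1, had 0.71, 0.45 and 0.09 FPKM on day 3, against 25.1, 25.5 and 22.4 FPKM on day 0. As for the rises, days without overlap were a condition of choosing these genes. TCH4, a touch-induced enzyme of the same transferase class, fell by 3.69 (Pag.B06G002192.v3.1), beta-tubulin Pag.B03G001476.v3.1 by 3.6, the DNA-3-methyladenine glycosylase tag Pag.A03G000734.v3.1 by 3.26 and the class III peroxidase Pag.A05G001376.v3.1 by 3.22 on the log2 scale. The sorbitol dehydrogenase SORD Pag.A12G002074.v3.1 had 2.23, 1.84 and 5.37 FPKM on day 3, against 48.7, 45.03 and 86.5 FPKM on day 0, with a spread among libraries that gave a limma adjusted p of 0.000565. Glutaredoxin Pag.A08G000263.v3.1 was listed at 0 in all 3 libraries of day 3, against 136, 158 and 164 FPKM on day 0. Its limma adjusted p of 0.0343 became 0.0736 to 0.0786 when any 1 library of either day was left out and 0.0522 with the replicate number as a block. The shared estimate of the spread also takes in its other values, 208, 0 and 183 FPKM on day 6 and 0, 64.7 and 259 FPKM on day 9, and with the 6 libraries of days 3 and 0 alone its limma adjusted p was 2.15e-09.

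**Figure D2:**
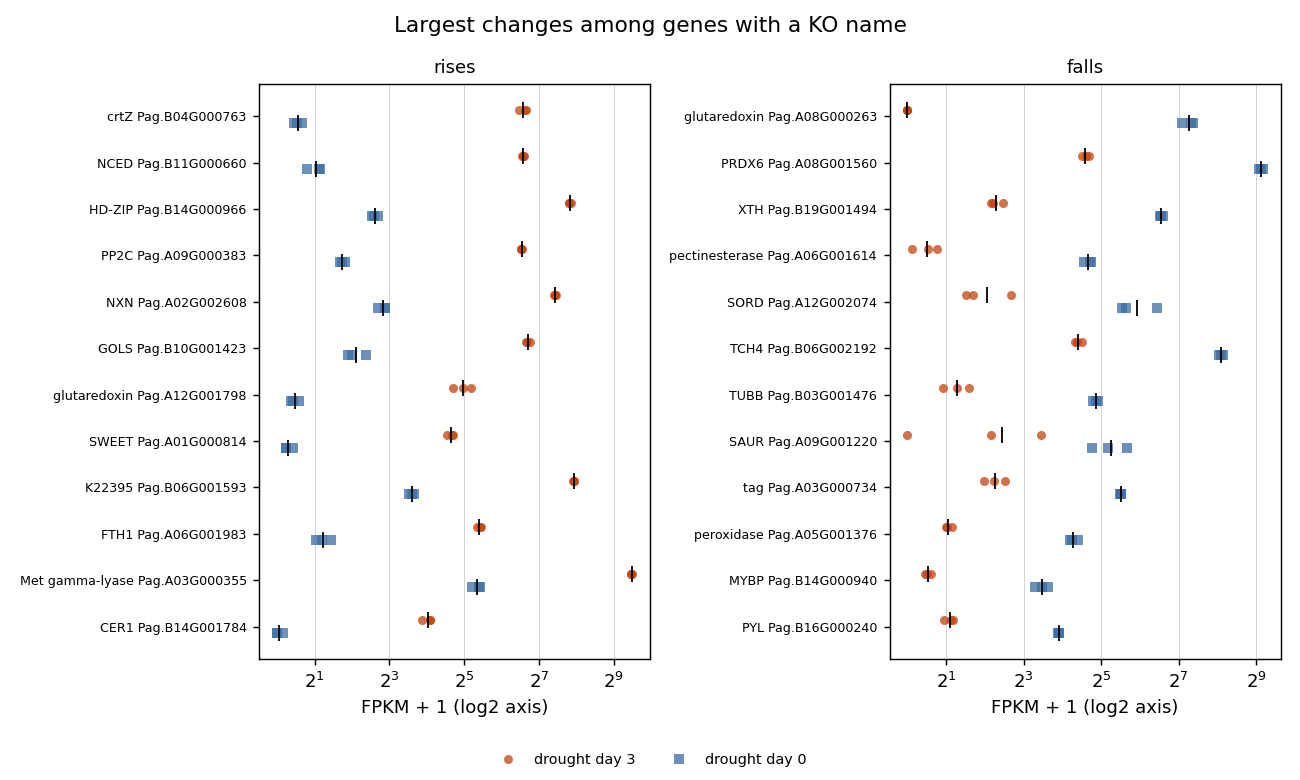
FPKM + 1 on a log2 axis of the 12 largest rises and the 12 largest falls among genes with a KO name, with 1 point for each of the 3 libraries of day 3 and the 3 of day 0, and a black tick at each day's mean. Genes were eligible only if the 2 days did not overlap, and the falls include SORD and SAUR genes whose libraries spread widely within a day.

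Across the 120 KEGG pathways with at least 20 tested genes, 57 had a median log2 change above 0 and 63 below 0. Fatty acid and wax pathways stood at the upper end. Biosynthesis of unsaturated fatty acids had the highest median, 0.43, with 30 of 47 genes higher and 5 lower, followed by cutin, suberine and wax biosynthesis with 24 of 40 higher and 8 lower. Alpha-linolenic acid metabolism had 50 of 92 higher and 15 lower, fatty acid degradation 62 of 112 higher and 14 lower, galactose metabolism 59 of 120 higher and 30 lower and beta-alanine metabolism 50 of 100 higher and 16 lower. Acyl-CoA oxidase genes, of which 15 of 16 rose, belong to 4 of these pathways and are counted in each. At the lower end, antenna proteins had 43 of 49 genes lower and 1 higher, followed by nitrogen metabolism with 42 of 68 genes lower and 14 higher. Motor proteins had 93 of 168 genes lower and 17 higher, steroid biosynthesis 36 of 73 genes lower and 12 higher and the ribosome 356 of 611 genes lower and 24 higher.

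**Figure D3:**
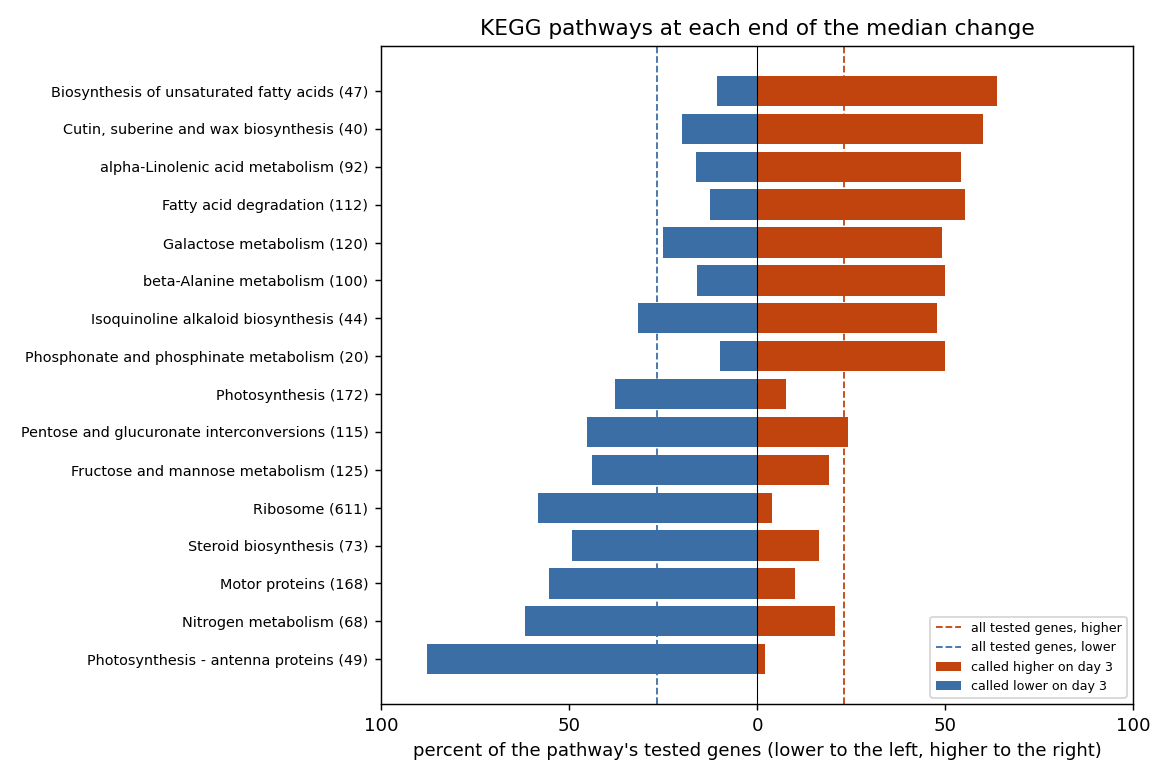
Percent of the tested genes of each pathway that were called higher (to the right) and lower (to the left) on day 3, for the 8 KEGG pathways with the highest and the 8 with the lowest median log2 change. Dashed lines mark the 23.2% higher and 26.7% lower of all tested genes, and tested genes per pathway are in brackets. The bars reach 63.8% higher in biosynthesis of unsaturated fatty acids, and 43 of 49 antenna genes are lower.

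Genes for the leaf surface wax rose while its chain-elongation genes were mixed. CER1 makes the alkanes of the cuticle, the waxy film that limits water loss. All 4 tested CER1 genes of 8 in the table rose, with summed FPKM 4.59-fold that of day 0. The most abundant, Pag.A14G001934.v3.1, had 140.3, 136 and 147 FPKM on day 3, against 46.5, 45.7 and 42.5 FPKM on day 0, a log2 change of 1.63 (SE 0.045, limma adjusted p of 5.35e-11). Pag.B14G001783.v3.1 had 40.9, 34.6 and 45.2 FPKM on day 3, against 1.76, 1.04 and 6.28 FPKM on day 0. Pag.B14G001784.v3.1 had 15.99, 16 and 13.8 FPKM on day 3, against 0, 0 and 0.12 FPKM on day 0. Day 3 values exceeded day 0 values in every CER1 gene, although the 2 less even genes varied several-fold between day 0 libraries. The fatty acyl-CoA reductases (FAR), which make wax alcohols, split: Pag.B09G001438.v3.1 and Pag.A09G001374.v3.1 rose by 2.33 and 2.2, and Pag.A19G000969.v3.1 fell by 0.84. The FAR fall lost its call with a pseudocount of 0.1 (limma adjusted p of 0.0814). Of 31 tested KCS genes, which elongate very-long-chain fatty acids, 8 rose and 12 fell. HTH, a dehydrogenase of cutin monomers, rose in 3 of 4 genes, and the acetyl-CoA carboxylase named ACACA, which supplies malonyl-CoA for elongation, rose in all 4. The cuticle list as a whole had 23 of 56 tested genes higher and 16 lower, with a median of 0.10 that was 0.06 without replicate 1 or without replicate 3 of day 3.

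Peroxisomal fatty acid breakdown rose more evenly. Acyl-CoA oxidases open each round of beta-oxidation, and 15 of 16 tested genes (of 19 in the table) rose while 0 fell, with a median of 1.03. Pag.B01G001662.v3.1, the largest rise, had 42.5, 61.2 and 45.8 FPKM on day 3, against 16.2, 12.5 and 17.8 FPKM on day 0. Pag.B01G001661.v3.1 had 71.1, 74.5 and 76.1 FPKM on day 3, against 25.96, 25.2 and 26.4 FPKM on day 0, a log2 change of 1.48 (SE 0.105, limma adjusted p of 3.8e-07). Both separated the days in every library. The later enzymes moved less: the multifunctional protein MFP2 rose in 3 of 7 genes and the thiolase ACAA1 in 4 of 10, with 0 lower in each. The lipase TGL4, which releases fatty acids from stored oil, rose in all 4 genes by a median of 0.72. Over the lipid breakdown list 26 of 37 genes rose and 0 fell, with a median of 0.59. Malate synthase, the glyoxylate cycle enzyme that takes up the acetyl-CoA, rose in 2 of 4 genes. Its gene Pag.B15G000559.v3.1 had 20.01, 18.7 and 19.6 FPKM on day 3, against 4.75, 3.22 and 3.97 FPKM on day 0, and the 2 genes that were not called had overlapping values. ALDH7A1, an aldehyde dehydrogenase placed in fatty acid degradation and beta-alanine metabolism, rose by 2.42 on the log2 scale (Pag.A01G001876.v3.1). In the same pathway the enoyl-CoA isomerase ECI1_2 Pag.A10G002230.v3.1 fell by 0.81, while 2 of the 6 tested ECI1_2 genes rose.

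Jasmonate is a lipid-derived hormone of wounding and defence, and the first steps of its synthesis rose in part. The 13-lipoxygenase LOX2S Pag.B01G000230.v3.1 had 389.6, 362 and 374 FPKM on day 3, against 61.03, 68.7 and 65.4 FPKM on day 0, a log2 change of 2.51 (SE 0.231, limma adjusted p of 1.5e-05). Pag.A01G000354.v3.1 had 251, 234 and 242 FPKM on day 3, against 65.7, 71.5 and 67.2 FPKM on day 0. Both were higher in every day 3 library, and 7 of 12 LOX2S genes rose while 2 fell. Allene oxide cyclase (AOC), which forms the ring of the hormone, had 314, 331 and 324 FPKM on day 3, against 105, 99.96 and 106 FPKM on day 0 in Pag.B04G001055.v3.1 and rose in 2 of 3 genes. Allene oxide synthase (AOS) was mixed, with 3 genes higher and 3 lower, from Pag.B09G001096.v3.1 at a log2 change of 2.0 to Pag.B02G001614.v3.1 at -1.51; the family's median of 0.18 was -0.07 without replicate 1 of day 0. JAZ repressors, which are themselves induced by the hormone, rose in 15 of 21 genes and fell in 4, and the transcription factor MYC2 that they bind rose in 4 of 7 and fell in 1. The receptor COI1 rose in 0 of 4 genes and fell in 2. Over the jasmonate list 37 of 80 genes rose and 24 fell, with a median of 0.17.

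INO1 genes of inositol synthesis rose and MIOX genes of inositol oxidation fell. Inositol-3-phosphate synthase (INO1) makes the ring from glucose 6-phosphate, and Pag.A05G000815.v3.1 had 408, 415 and 409 FPKM on day 3, against 37.6, 39.2 and 40.6 FPKM on day 0, a log2 change of 3.36 (SE 0.048, limma adjusted p of 1.95e-13). The 3 other tested INO1 genes rose by 2.19 to 3.39 on the log2 scale. MIOX, which opens the ring on the way to wall sugars, moved the other way in all 4 tested genes: Pag.A08G001073.v3.1 had 24.3, 24.6 and 24.4 FPKM on day 3, against 102, 101 and 105 FPKM on day 0, a log2 change of -2.03 (SE 0.038, limma adjusted p of 1.82e-12). All 6 libraries separated in both genes. The starch branching enzyme (glgB) rose in all 9 tested genes, among which Pag.A05G002533.v3.1 had 115, 109.7 and 111 FPKM on day 3, against 37.97, 41.5 and 41.3 FPKM on day 0. Its summed FPKM was 2.28-fold that of day 0. Hexokinase Pag.B09G000488.v3.1 fell by 1.66 and the phosphofructokinase pfp Pag.A05G002601.v3.1 rose by 1.5. Both families were split, with 2 of 10 hexokinase genes higher and 4 lower, and 4 of 8 pfp genes higher and 3 lower. The fructose-2,6-bisphosphate enzyme PFKFB3, which tunes sucrose synthesis, fell in all 5 tested genes by a median of 0.97 on the log2 scale. Starch-degrading beta-amylases rose in 10 of 23 genes and fell in 2, and alpha-amylases in 7 and 1 of 11. The summed FPKM of beta-amylases was nonetheless 0.675 times that of day 0, and that of alpha-amylases 1.33 times.

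In nitrogen metabolism, most genes of nitrate reduction and glutamine synthesis fell while asparagine synthase was split. Nitrate reductase (NR) fell in 6 of 7 tested genes, with Pag.B02G000968.v3.1 at 16.5, 14.98 and 15.9 FPKM on day 3, against 56.9, 56.9 and 59 FPKM on day 0, a log2 change of -1.8 (SE 0.047, limma adjusted p of 3.31e-11). The NR gene that was not called, Pag.A14G001051.v3.1, was uneven, at 36.8, 0 and 3.32 FPKM on day 3, against 0, 1.53 and 0 FPKM on day 0. Among the 6 lower NR genes, Pag.A02G001844.v3.1 and Pag.A02G001904.v3.1 had the same FPKM in every library and may count shared reads. Both nitrite reductase genes fell, glutamine synthetase (glnA) fell in 14 of 21 genes and rose in 1, and the ferredoxin-type glutamate synthase (gltS) of chloroplasts fell in all 4. The NADH-type glutamate synthase (GLT1) instead rose in all 4, with Pag.B15G001306.v3.1 at 25.4, 22.3 and 23.5 FPKM on day 3, against 8.14, 7.84 and 7.76 FPKM on day 0.

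Asparagine synthase makes asparagine, a nitrogen carrier that accumulates in stressed or darkened leaves. Pag.B09G000719.v3.1 had 489, 462 and 473 FPKM on day 3, against 46.9, 51.6 and 71.2 FPKM on day 0, a log2 change of 3.07 (SE 0.118, limma adjusted p of 7.25e-09). Pag.A09G000718.v3.1 had 423, 394 and 406 FPKM on day 3, against 53.4, 58.7 and 55.9 FPKM on day 0. The other tested members, Pag.B05G000798.v3.1 and Pag.A05G000779.v3.1, fell by 0.30 and 0.50. The pair of abundant genes thus separated upward in every library and the pair of low genes downward. A carbonic anhydrase of the nitrogen pathway, cynT Pag.A15G000702.v3.1, rose by 3.14. The family was split, with 5 of 11 tested genes higher and 6 lower and summed FPKM 0.796 times that of day 0. Among the NRT1-type nitrate and peptide carriers 26 of 62 rose and 21 fell.

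Methionine gamma-lyase (E4.4.1.11), which splits methionine and feeds isoleucine synthesis, was among the most abundant rising enzymes. Pag.B03G002076.v3.1 had 1022, 992 and 1009.9 FPKM on day 3, against 247, 267 and 274 FPKM on day 0, a log2 change of 1.94 (SE 0.056, limma adjusted p of 8.07e-11). Pag.A03G000355.v3.1 had 708, 704 and 722 FPKM on day 3, against 35.7, 41.4 and 42.01 FPKM on day 0, a log2 change of 4.13 (SE 0.064, limma adjusted p of 3.58e-13). Neither overlapped between days, and 4 of 6 tested genes rose with summed FPKM 4.56-fold that of day 0. Branched-chain keto acid dehydrogenase (BCKDHA), of leucine, isoleucine and valine breakdown, rose in 3 of 4 genes, among them Pag.B05G001863.v3.1 by 1.85. The aminotransferase ilvE Pag.B02G001263.v3.1 of the same pathway fell by 1.35, and the list had 13 of 38 genes higher and 3 lower. Carriers under the KO name SLC32A, which KEGG uses for vesicular amino acid transporters, rose in 10 of 11 tested genes by a median of 1.18, with Pag.A06G002713.v3.1 at 43.5, 44.2 and 44.4 FPKM on day 3, against 11.9, 12.7 and 12.1 FPKM on day 0. Sulphate carriers named SULTR2 fell in all 4 tested genes by a median of 0.83 on the log2 scale.

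Iron storage genes rose as a whole family. Ferritin (FTH1) holds iron in a protein shell in plastids, and all 9 genes in the table passed the filter and rose, by a median of 2.43. Pag.B16G000246.v3.1 had 76.05, 73.9 and 75.1 FPKM on day 3, against 7.24, 6.96 and 7.53 FPKM on day 0, a log2 change of 3.21 (SE 0.059, limma adjusted p of 1.58e-12). Pag.A06G001983.v3.1 had 39.4, 41.95 and 42.9 FPKM on day 3, against 1.28, 1.69 and 1.06 FPKM on day 0. Pag.B06G001875.v3.1 had 20.1, 20.9 and 21.4 FPKM on day 3, against 0.1, 0.26 and 0.28 FPKM on day 0. All day 3 libraries of each lay above all day 0 libraries, and the summed FPKM of the family was 6.19-fold that of day 0. Genes named CISD2, for a protein with an iron-sulphur cluster, rose in all 5 cases, of which Pag.A12G000137.v3.1 and Pag.A12G002116.v3.1 had the same FPKM in every library. Ferric-chelate reductase (E1.16.1.7), which brings iron into cells, fell in 9 of 12 genes and rose in 0.

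Redox genes outside these were mixed. Over the redox list 63 of 162 genes rose and 50 fell, and the median of -0.04 lay near that of all genes. Glutathione peroxidases (GPX), which remove lipid peroxides, rose in 6 of 8 genes, and thioredoxins rose in 10 of 33 and fell in 16. Superoxide dismutases rose in 2 of 17 genes and fell in 6. Catechol oxidases (E1.10.3.1), copper enzymes that oxidise phenols, rose in 8 of 9 genes, and their most abundant member Pag.B01G004078.v3.1 had 404, 409 and 395 FPKM on day 3, against 201, 199 and 195 FPKM on day 0. The primary amine oxidase Pag.B10G000796.v3.1 (AOC3) fell by 1.82 on the log2 scale.

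Volatile terpene genes were called in both directions, also within families. CYP82G1 forms homoterpene volatiles in Arabidopsis, and all 4 tested genes rose. Pag.B04G001104.v3.1 had 115, 115 and 119 FPKM on day 3, against 20.6, 19.4 and 18.4 FPKM on day 0, a log2 change of 2.52 (SE 0.178, limma adjusted p of 1.4e-06). Pag.A04G001118.v3.1 had 31.4, 28.5 and 32.7 FPKM on day 3, against 3.04, 2.93 and 1.89 FPKM on day 0. No library of day 3 overlapped with day 0 in either gene, and both were chosen after their values were seen. Nerolidol synthase (NES1), which supplies a precursor of such homoterpenes, rose in 4 of 5 genes, with Pag.A11G000427.v3.1 at 8.73, 11.9 and 15.2 FPKM on day 3, against 1.32, 2.20 and 1.54 FPKM on day 0. Isoprene synthase (ispS) makes the volatile that poplar leaves emit in heat. Pag.B07G000311.v3.1 had 65.7, 64.2 and 65.02 FPKM on day 3, against 9.64, 11.1 and 9.53 FPKM on day 0, a log2 change of 2.58 (SE 0.1, limma adjusted p of 1.53e-09). Pag.A07G002749.v3.1 rose by 2.58 as well, while Pag.B17G001406.v3.1 and Pag.A17G001378.v3.1 fell by 0.88 and 0.44. Germacrene D synthase (GERD) fell in 7 of 11 genes and rose in 4, with Pag.A08G000171.v3.1 at 60.4, 54.7 and 62.7 FPKM on day 3, against 139, 161 and 154 FPKM on day 0. Upstream, the plastid enzyme dxs Pag.A06G001246.v3.1 rose by 2.7. The terpene list had 14 of 31 genes higher and 12 lower, with a median of 0.16 that turned to -0.14 among genes with a mean of at least 5 FPKM.

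Of 73 genes of the steroid biosynthesis pathway 36 fell and 12 rose, 4 of the rises being the TGL4 lipase genes. The reductase DWF1, of sterol and brassinosteroid synthesis, fell in all 4 tested genes, with Pag.B10G001602.v3.1 at 10.9, 10.2 and 11.9 FPKM on day 3, against 26.4, 24.1 and 26.9 FPKM on day 0. The sterol methyl oxidase SMO1 and the sterol methyltransferase E2.1.1.143 also fell in all 4 and all 4 tested genes, by medians of 0.93 and 0.91 on the log2 scale. The acyltransferase DGAT3 fell in all 4 tested genes by a median of 1.05. In the steroid pathway the lipase LIPA Pag.A14G001649.v3.1 fell by 1.92. Genes of the pathway named DHCR7 fell in 3 of 3 cases and those named TM7SF2 in 2 of 2. SC5DL fell in 3 of 4 genes and EBP in 2 of 4, with 0 higher in either. Others were mixed or less often called. The methyltransferase SMT1 and the squalene synthase FDFT1 each rose in 2 of 4 genes and fell in 1. The demethylase CYP51 rose in 2 of 5 and fell in 2. The squalene epoxidase SQLE fell in 3 of 10 with 0 higher, and none of the 5 cycloartenol synthase (CAS1) genes was called.

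**Figure D4:**
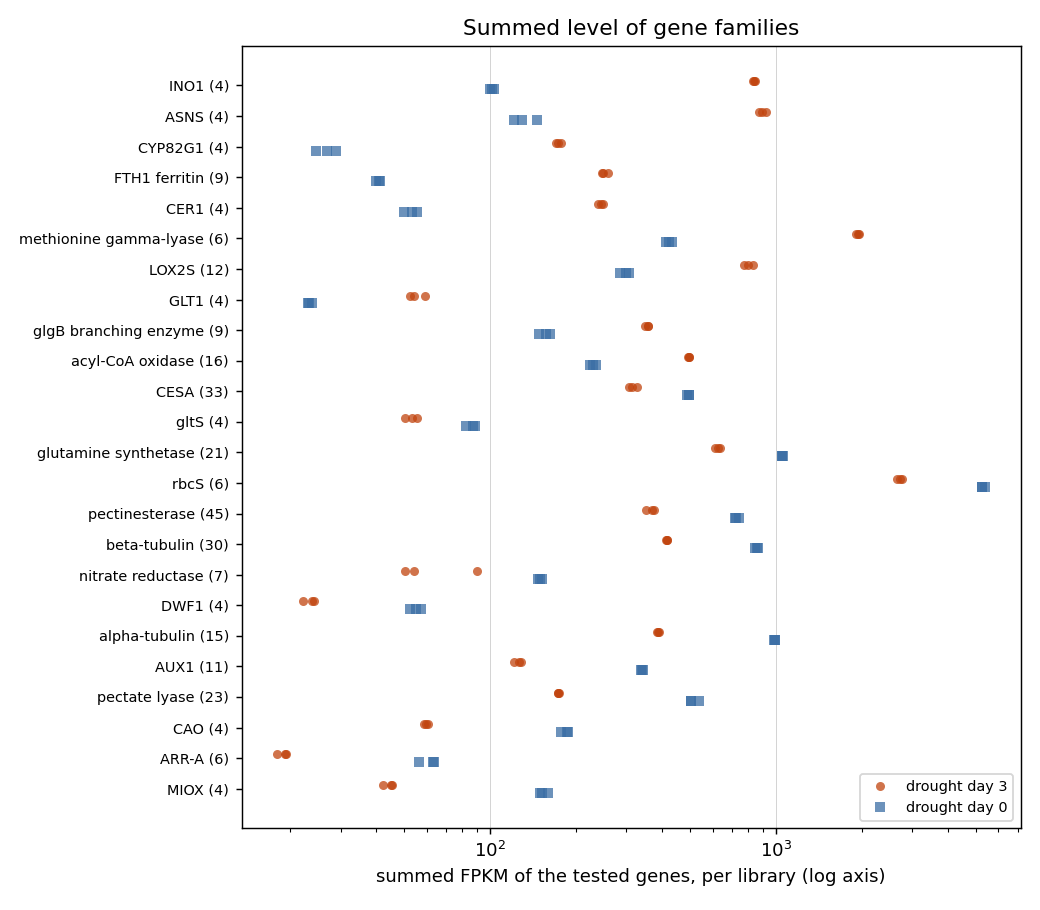
Summed FPKM of the tested genes of each gene family on a log axis, with 1 point for each of the 3 libraries of day 3 and the 3 of day 0 and the number of tested genes in brackets, whether or not they were called. The families are ordered from the highest ratio of day 3 over day 0, 8.25 for INO1, to the lowest, 0.288 for MIOX. They were chosen with values of these data known, and none shown overlaps between the days.

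Most tubulin and cellulose synthase genes fell. Alpha-tubulin (TUBA), a partner in the dimer that builds microtubules, fell in 13 of 15 tested genes. Pag.B09G000845.v3.1 had 134, 131 and 129 FPKM on day 3, against 415, 412 and 416 FPKM on day 0, a log2 change of -1.65 (SE 0.051, limma adjusted p of 1.6e-10). Pag.A09G000844.v3.1 had 106, 108 and 106 FPKM on day 3, against 329, 324 and 329 FPKM on day 0. Both lay lower in every day 3 library, and the 2 TUBA genes that rose did so by 0.32 and 0.30. Beta-tubulin (TUBB) fell in 26 of 30 genes and rose in 0, and of 3 genes for gamma-tubulin (TUBG), which nucleates microtubules, 2 fell and Pag.A02G001008.v3.1 rose, by 1.85. Actin (ACTF) fell in 11 of 15 genes and rose in 2. Cellulose synthase (CESA) fell in 27 of 33 and rose in 3, falling most in Pag.B05G000930.v3.1 at 4.25, 4.87 and 4.30 FPKM on day 3, against 23.5, 23.6 and 23.8 FPKM on day 0. The largest CESA rise, Pag.B06G000315.v3.1, had 42.4, 36.9 and 39.5 FPKM on day 3, against 18.9, 18.7 and 19.6 FPKM on day 0.

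Pectate lyase (pel), which cuts pectin, fell in 16 of 23 tested genes, of 61 in the table, and rose in 2, with summed FPKM 0.335 times that of day 0. Pectinesterases fell in 21 of 45 and rose in 6, and xyloglucan transferases (XTH) fell in 22 of 37 and rose in 6. The cell wall list had 90 of 150 genes lower and 21 higher, with a median of -0.50. The vascular marker list, which shares CESA with it, had 45 of 91 lower, and the part of vascular cells in the fall was not tested. UDP-glucose dehydrogenase (UGDH), which makes the acid sugars of pectin, rose by 1.16 in Pag.A08G001619.v3.1, but of 7 tested UGDH genes 3 rose and 4 fell.

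More auxin genes fell than rose. Aux/IAA proteins are early auxin-induced repressors, and 30 of 46 tested genes fell while 6 rose. SAUR genes, also induced by auxin, fell in 19 of 45 and rose in 5, and the importers named AUX1 fell in 7 of 11 with 0 higher. SAUR Pag.A15G001399.v3.1 was the largest auxin rise, but it was uneven on day 0, at 9.29, 9.88 and 10.4 FPKM on day 3, against 1.86, 7.67 and 0 FPKM on day 0, and its call (limma adjusted p of 0.0461) was lost in 9 of 15 alternatives, among them those without replicate 1 or 3 of day 0 or any replicate of day 3 (0.0887 to 0.11). Auxin response factors (ARF) rose in 10 of 21 genes and fell in 0. The auxin list had 64 of 140 genes lower and 24 higher, with a median of -0.26.

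Type-A response regulators (ARR-A), which damp cytokinin signalling and are induced by it, fell in all 6 tested genes of 12 in the table. Pag.A15G000756.v3.1 had 6.66, 7.19 and 5.41 FPKM on day 3, against 23.5, 20.9 and 18.4 FPKM on day 0, a log2 change of -1.56 (SE 0.108, limma adjusted p of 1.9e-07). Pag.B15G000780.v3.1 had 1.66, 2.11 and 1.86 FPKM on day 3, against 12.7, 11.1 and 11.9 FPKM on day 0. Day 0 was the higher day in every library of both. Cytokinin synthesis genes (IPT) rose in 4 of 5 tested genes, and the phosphotransmitters AHP rose in 6 of 13 and fell in 3, with Pag.B06G000489.v3.1 higher by 1.62. Type-B regulators (ARR-B) rose in 6 of 24 and fell in 3. The cytokinin list as a whole had 22 of 59 genes higher and 16 lower, with a median of 0.04. D-type cyclins, which start the cell cycle in response to hormones, fell in 11 of 18 genes and rose in 3, and CYCD3 fell in 6 of 7. None of the 7 tested CYCA and CYCB cyclin genes was called, and of 4 MCM replication genes 1 fell and 0 rose. The cell cycle and histone list had 14 of 106 genes higher and 31 lower, with a median of -0.10. YABBY transcription factors (YAB), which set the lower face of the leaf blade, fell in 11 of 13 and rose in 2.

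Gibberellin receptors (GID1) rose in 5 of 6 genes, with Pag.A14G001380.v3.1 at 49.6, 51.6 and 51.6 FPKM on day 3, against 9.77, 9.41 and 9.91 FPKM on day 0. DELLA repressors, which the receptors remove, fell in 6 of 16 and rose in 2. In the ethylene list 21 of 58 genes rose and 18 fell. EIN3 transcription factors rose in 4 of 11 genes and fell in 3, and EBF1_2, the F-box proteins that remove them, rose in 5 of 10 and fell in 5, with Pag.B06G002221.v3.1 higher by 1.88. The EIN3 gene Pag.B04G001927.v3.1 had a log2 change of -0.76. In the brassinosteroid list 18 of 57 rose and 19 fell. In the salicylate and defence list 18 of 54 rose and 21 fell: the secreted protein PR1 rose in Pag.B09G000835.v3.1, by 1.27, and fell in 3 other genes, and TGA transcription factors rose in 10 of 20 and fell in 4, with Pag.A02G001822.v3.1 higher by 2.81.

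Abscisic acid signalling genes were called in both directions. PYL receptors fell in 10 of 21 genes and rose in 4, with Pag.B16G000240.v3.1 at 1.25, 1.19 and 0.94 FPKM on day 3, against 13.99, 13.8 and 13.9 FPKM on day 0. SnRK2 kinases rose in 7 of 26 and fell in 10. ABF transcription factors, which the kinases activate, rose in 15 of 25 and fell in 3, with summed FPKM 2.47-fold that of day 0. CYP707A, which degrades the hormone, rose in 6 of 12 and fell in 2. The abscisic acid list had 62 of 125 genes higher and 32 lower, with a median of 0.22.

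Light harvesting and carbon fixation fell by moderate amounts. The antenna list had 43 of 49 genes lower and 1 higher, with a median of -0.89, and the carbon fixation list had 20 of 27 lower and 0 higher, with a median of -0.49. The most even fall among LHCB1 genes was Pag.A05G002418.v3.1, at 617, 682 and 616 FPKM on day 3, against 1395, 1486 and 1502 FPKM on day 0. Less even was Pag.A05G002416.v3.1, at 575, 1305 and 606 FPKM on day 3, against 1574, 1609 and 1619 FPKM on day 0, so 1 day 3 library approached the day 0 level. The call of Pag.A05G002416.v3.1 (limma adjusted p of 0.0156) was lost without replicate 1 of day 3 (0.0531), without replicate 3 of day 3 (0.0553) and with the 6 libraries alone (0.0781). LHCB2 Pag.A02G000527.v3.1 had overlapping days, at 37.1, 0 and 0.01 FPKM on day 3, against 80.3, 34.1 and 57.3 FPKM on day 0, and its call (limma adjusted p of 0.0415) was lost in 8 of 15 alternatives, 5 of which left out 1 library (0.0677 to 0.131). Of 102 photosystem and electron transport genes, 60 fell and 10 rose. Chlorophyllide a oxygenase (CAO), which makes chlorophyll b, fell in all 4 genes, by a median of 1.92 on the log2 scale.

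Photorespiration recycles the product of Rubisco's reaction with oxygen, and 37 of 62 tested genes fell while 9 rose, with a median of -0.32. Glutamate:glyoxylate aminotransferase (GGAT) fell in all 4 genes, with Pag.A10G000642.v3.1 at 80.8, 79.4 and 81.3 FPKM on day 3, against 165, 174 and 177 FPKM on day 0, a log2 change of -1.08 (SE 0.056, limma adjusted p of 1.35e-08). The glycine decarboxylase subunit gcvP Pag.B06G000555.v3.1 had 36.5, 33.7 and 37.3 FPKM on day 3, against 91.8, 102 and 103 FPKM on day 0. The H subunit gcvH fell in all 9 genes. Day 0 was higher in every library for Pag.A10G000642.v3.1 and Pag.B06G000555.v3.1. Hydroxypyruvate reductase HPR2_3 Pag.A01G001316.v3.1 rose by 0.72, the largest rise in the list. Of 425 cytosolic ribosomal protein genes 292 fell and 9 rose, by a small median of -0.29.

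Transcription factors were called in both directions. In the whole list 163 of 457 genes rose and 113 fell, with a median of 0.07. WRKY factors rose in 12 of 21 and fell in 0. HD-ZIP factors rose in 25 of 66 and fell in 18, ethylene-responsive EREBP in 21 and 24 of 66, and MYB factors named MYBP in 55 and 45 of 155. The largest fall was MYBP Pag.B14G000940.v3.1, at 0.53, 0.38 and 0.41 FPKM on day 3, against 11.4, 10.1 and 8.79 FPKM on day 0. Calmodulin-like calcium sensors (CML) rose in 27 of 52 and fell in 12. The clock list had 25 of 49 genes lower and 10 higher, with COP1 Pag.B04G000035.v3.1, a light-signalling ubiquitin ligase, higher by 1.13. At what hour the leaves were taken is not stated in the labels.

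Water channel genes were called in both directions. Plasma membrane aquaporins (PIP) rose in 14 of 25 genes and fell in 7, and vacuolar ones (TIP) rose in 5 of 22 and fell in 10. PIP Pag.B08G001800.v3.1 had 376, 391 and 387 FPKM on day 3, against 55.97, 59.6 and 57.2 FPKM on day 0, a log2 change of 2.72 (SE 0.062, limma adjusted p of 1.11e-11). TIP Pag.A16G000485.v3.1 had 29.5, 30.99 and 33.5 FPKM on day 3, against 164, 156 and 163 FPKM on day 0. Neither gene overlapped between days. The difference between the 2 subfamilies was not tested.

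More chaperone and autophagy genes rose than fell. Small heat shock proteins (HSP20) rose in 19 of 33 genes and HSP100 in 7 of 12, with 0 lower in each. Heat shock factors (HSFF) rose in 14 of 39 and fell in 9, and Pag.B10G000721.v3.1 had 23.97, 23.9 and 24.8 FPKM on day 3, against 1.72, 1.47 and 1.79 FPKM on day 0. Autophagy genes rose in 36 of 69 and fell in 4, with ATG8 Pag.A10G001703.v3.1 higher by 2.33. Proteasome genes rose in 39 of 142, a share near the 23.2% of all genes, and fell in 16, with summed FPKM 0.951 times that of day 0. PSMA4 Pag.A06G002978.v3.1 fell by 1.01. Flavonoid enzymes rose in 14 of 18 tested genes with 0 lower, although 55 were in the table. Some were low: the 4 tested CHS genes summed to 8.6, 8.7 and 8.1 FPKM on day 3, against 4.5, 4.6 and 4.1 FPKM on day 0. Of 4 ANS genes 0 were tested. The 4 CHI genes summed to 82.6, 90.1 and 88.3 FPKM on day 3, against 61.5, 66.0 and 66.8 FPKM on day 0. In the phenylpropanoid list 52 of 142 rose and 42 fell. Its enzyme 4CL rose in 12 of 20 and fell in 2, PAL in 1 and 2 of 8, and CYP98A fell in 4 of 7 with 0 higher.

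The 3 largest rises of all belonged to genes without a KO name. Pag.B16G001045.v3.1, with the GO term embryo development ending in seed dormancy, had 1025, 1051 and 1058 FPKM on day 3, against 9.60, 11.6 and 10.5 FPKM on day 0, a log2 change of 6.5 (SE 0.055, limma adjusted p of 6.28e-15). Pag.A12G000039.v3.1, with neither a KO name nor a GO term, had 88.8, 92.2 and 95.4 FPKM on day 3, against 0.1, 0.35 and 0.07 FPKM on day 0. Pag.B15G000560.v3.1, also without annotation, had 118, 117 and 115 FPKM on day 3, against 0.33, 0.61 and 0.59 FPKM on day 0. These 3 were near or under 10 FPKM in every day 0 library and high in every day 3 library. The transcription factor Pag.B06G001471.v3.1, known here by its GO terms, had 456, 438 and 462 FPKM on day 3, against 14.7, 12.6 and 14.6 FPKM on day 0. Pag.A11G001311.v3.1, with GO terms for copper and zinc binding, had 273, 291 and 295 FPKM on day 3, against 7.38, 6.77 and 5.93 FPKM on day 0. Another 3 genes without any annotation, Pag.A12G001685.v3.1, Pag.A15G000524.v3.1 and Pag.A12G000516.v3.1, rose by 5.77, 5.52 and 4.81 on the log2 scale.

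Falls without a KO name included secreted and regulatory proteins. Pag.B06G001435.v3.1 and Pag.B03G000845.v3.1, which share the GO terms apoplast and manganese ion binding, are the most abundant of them. Pag.B06G001435.v3.1 had 19.9, 16.3 and 16.5 FPKM on day 3, against 598, 639 and 637 FPKM on day 0, a log2 change of -5.08 (SE 0.105, limma adjusted p of 4.14e-12). Pag.B03G000845.v3.1 had 9.96, 8.38 and 8.57 FPKM on day 3, against 258, 274 and 256 FPKM on day 0. Both were chosen among genes whose days did not overlap. The transcription factor Pag.B02G002262.v3.1 fell by 5.56, the ethylene-signalling transcription factor Pag.A03G000780.v3.1 by 4.81 and the transcription factor Pag.A02G000065.v3.1 by 4.56 on the log2 scale. A monooxygenase by its GO terms, Pag.A07G002610.v3.1, was listed at 0 in all day 3 libraries, against 101, 59.6 and 125 FPKM on day 0. The membrane proteins Pag.B19G000610.v3.1 and Pag.A13G000217.v3.1 were also listed at 0 on day 3, against 47.6, 50.5 and 41.6 FPKM and 32.6, 34.6 and 66.3 FPKM on day 0.

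**Figure D5:**
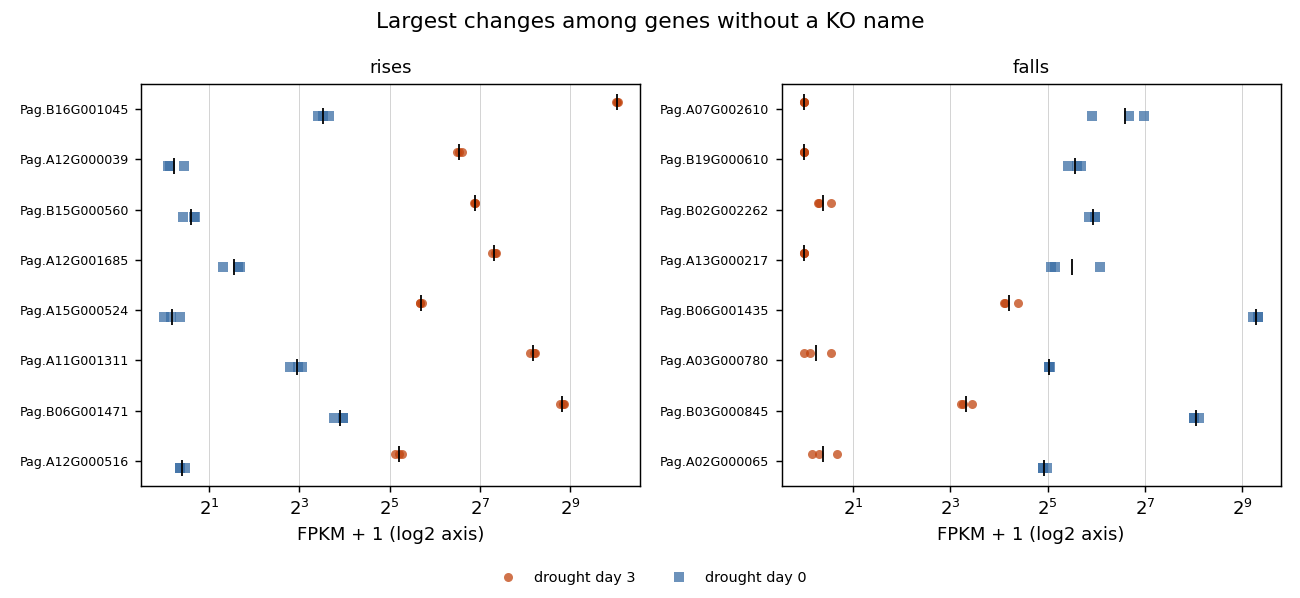
FPKM + 1 on a log2 axis of the 8 largest rises and the 8 largest falls among genes without a KO name, with 1 point for each of the 3 libraries of day 3 and the 3 of day 0, and a black tick at each day's mean. Genes were eligible only if the days did not overlap, and 3 of the falls are at 0 in every day 3 library.

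Among GO terms counted over genes without a KO name, the ethylene-activated signalling pathway had 17 of 22 genes higher and 3 lower, with a median of 0.89. Pag.A05G001981.v3.1 of that term had 24.9, 24.7 and 23.9 FPKM on day 3, against 3.51, 3.65 and 4.07 FPKM on day 0. Cell proliferation had 16 of 24 higher and 0 lower, and Pag.A14G000097.v3.1 had 124, 137 and 129.8 FPKM on day 3, against 37.6, 34.96 and 35.2 FPKM on day 0. Each gene was higher in every day 3 library. Lipid transport had 28 of 67 higher and 13 lower. Among lower terms, secondary cell wall biogenesis had 16 of 23 genes lower and 1 higher, with Pag.A19G001151.v3.1 at 2.06, 2.87 and 2.09 FPKM on day 3, against 42.8, 43.01 and 44.8 FPKM on day 0. Response to auxin had 10 of 20 lower and 2 higher, with Pag.B04G001300.v3.1 at 4.99, 15.7 and 11.1 FPKM on day 3, against 69.8, 59.5 and 65.9 FPKM on day 0, and microtubule binding had 49 of 82 lower and 6 higher. Day 0 was the higher day in every library of the 2 falling genes. The directions of these unnamed wall, auxin and microtubule genes were those of the KO-named families above, and no test compared them. Some other terms differed from the KO-named lists. Abscisic acid-activated signalling had 11 of 31 genes higher and 12 lower, with a median of -0.27, against 0.225 in the abscisic acid list. Abscisic acid binding had 5 of 20 genes higher and 7 lower, with a median of -0.19. Response to abscisic acid instead lay near the list, with 12 of 22 genes higher and 5 lower and a median of 0.19. The ethylene list had 21 of 58 genes higher and 18 lower, with a median of 0.03, unlike the ethylene term.

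The 5 most abundant genes on day 3 all lacked a KO name and all rose. They were chosen by their level on day 3, a choice that favours rises. Pag.A01G004426.v3.1, with copper and zinc binding terms, had 7975, 8558 and 8847 FPKM on day 3, against 6475, 6488 and 6503 FPKM on day 0. Pag.B10G001427.v3.1, with the GO term pollen tube adhesion, had 3336, 3567 and 3533 FPKM on day 3, against 881, 876 and 889 FPKM on day 0, a log2 change of 1.98 (SE 0.035, limma adjusted p of 1.19e-12). The lipid transport gene Pag.B04G000892.v3.1 had 3492, 3659.5 and 3680.1 FPKM on day 3, against 1813, 1770.4 and 1738 FPKM on day 0. Every day 3 value exceeded every day 0 value, and the rise of Pag.A01G004426.v3.1 was the smallest of the 5, a log2 change of 0.38. Pag.B01G004220.v3.1 and Pag.A05G000943.v3.1 rose by 0.81 and 0.92. Since FPKM are shares of a library, a rise of such genes lowers the share of all others.

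Some genes were above 1 FPKM on only one of the days. Of the tested genes, 552 had at least 1 FPKM in all day 3 libraries and in no day 0 library, and 718 the reverse. On day 0, 25 genes that reached 1 FPKM in every day 3 library were listed at 0 in every library, 21 of them without a KO name, with a median of 5.63 FPKM on day 3. Another 28 were listed at 0 in every day 3 library while reaching 1 FPKM in every day 0 library, with a median of 3.59 FPKM on day 0. Next to the threshold of the filter, 1186 genes reached 1 FPKM in exactly 2 of the 6 libraries and were not tested, with a median mean of 0.88 FPKM, and 1806 reached it in exactly 3 and were tested, with a median mean of 1.15 FPKM.

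Day 6 shows which of these early changes went on. Of the 20 rises chosen above by size (12 with and 8 without a KO name), 17 were higher again on day 6 than on day 3 and 2 were lower, and of the 20 falls 10 were lower again and 3 were higher. Falls listed at 0 in every day 3 library, such as glutaredoxin Pag.A08G000263.v3.1 and Pag.A07G002610.v3.1, could not go lower. The counts of rises and falls that went on are thus not comparable. Over all 38617 genes, 73.7% differed between day 6 and day 3, counting both directions. Methionine gamma-lyase Pag.A03G000355.v3.1 was 1 of the 2 rises that had come down on day 6, by 1.98 on the log2 scale, and crtZ Pag.B04G000763.v3.1 the other, by 0.96. SORD Pag.A12G002074.v3.1 was among the 3 falls that had partly recovered, with a log2 change of 1.57 from day 3 to day 6.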

How the data were processed

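The deposited table of all genes holds FPKM values that the authors computed, with 2 decimals, and the authors' day means equalled the library means within 0.01 for 100% of values. The sources used here do not name the aligner, genome build or quantification program. The values hold no read counts. The spacing of low FPKM values gave a most frequent ratio to the first day 0 library between 0.936 and 1.09, with no clear peak, so the depth of each library is unknown and no counting interval was given. The tables of gene subsets were not used.

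The day in each label set the groups. Genes tested had at least 1 FPKM in 3 or more of the 6 libraries of days 3 and 0. Values were analysed as log2(FPKM + 1) by limma (version 3.58.1, R 4.3.3) with a variance trend over intensity, robust moderation, 1 mean per day and all 12 libraries sharing 1 estimate of the spread. P-values were adjusted by Benjamini and Hochberg over all 38617 genes and called under 0.05. The procedure was tested on simulated data. Python 3.11.15 made the tables, with pandas 2.3.3 and numpy 2.4.6, and matplotlib 3.10.9 the figures. A 3 against 3 exact permutation test cannot go below a p of 0.1 and was not used.

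The genes and the 35 lists of KO names were chosen with earlier results of these data known. Named genes are the 12 largest called rises and falls with a KO name (1 per name) and the 8 largest without one, if days did not overlap and the higher day averaged 5 FPKM or more, the largest called rise and fall of each list and of the 8 highest and 8 lowest pathways by median, and the 5 most abundant genes of day 3. Other genes, and KO families outside the lists such as ferritin, CYP82G1, methionine gamma-lyase, tubulin and DWF1, were chosen after their values were seen. Pathways and GO terms needed at least 20 tested genes. In 291 sets, 589 tested genes shared the same FPKM in all 12 libraries, and such copies are not independent.

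Alternatives were pseudocounts of 0.1 and 0.5, no filter, a mean of at least 5 FPKM, the 6 libraries alone, no trend or robust moderation, median-ratio scaling, each library left out in turn, the replicate number as a block, and identical genes counted once. Results for some genes are not reported here.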

Additional observations from a re-analysis of the deposited data

Results flagged for a closer look

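The 40 largest changes of day 3 named above were set against day 6 with the same limma fit, and 32 of them differed between day 6 and day 3 at an adjusted p under 0.05, against 73.7% of all tested genes. These comparisons share the day 3 libraries. All values are log2 changes of day 6 minus day 3.

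Among rises with a KO name, the SWEET carrier Pag.A01G000814.v3.1 went on by 4.55, K22395 Pag.B06G001593.v3.1 by 3.89, glutaredoxin Pag.A12G001798.v3.1 by 2.45 and ferritin Pag.A06G001983.v3.1 by 2.11. PP2C Pag.A09G000383.v3.1 went on by 1.14, HD-ZIP Pag.B14G000966.v3.1 by 1.05, CER1 Pag.B14G001784.v3.1 by 1.04, NCED Pag.B11G000660.v3.1 by 0.95, NXN Pag.A02G002608.v3.1 by 0.82 and GOLS Pag.B10G001423.v3.1 by 0.73. The change was -1.98 for methionine gamma-lyase Pag.A03G000355.v3.1 and -0.96 for crtZ Pag.B04G000763.v3.1.

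Among falls with a KO name, the change was -4.59 for PRDX6 Pag.A08G001560.v3.1, -2.15 for the xyloglucan transferase Pag.B19G001494.v3.1, -2.14 for TCH4 Pag.B06G002192.v3.1, -1.9 for tag Pag.A03G000734.v3.1, -0.71 for beta-tubulin Pag.B03G001476.v3.1 and -0.42 for the pectinesterase Pag.A06G001614.v3.1. Peroxidase Pag.A05G001376.v3.1 was higher on day 6 than on day 3 by 2.54, SORD Pag.A12G002074.v3.1 by 1.57 and the PYL receptor Pag.B16G000240.v3.1 by 0.81.

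Rises without a KO name went on by 1.73 in Pag.A12G000516.v3.1, 1.63 in Pag.A12G001685.v3.1, 1.5 in Pag.A15G000524.v3.1, 1.37 in Pag.A11G001311.v3.1, 1.19 in Pag.B15G000560.v3.1, 0.74 in Pag.B06G001471.v3.1 and 0.41 in Pag.B16G001045.v3.1. Falls without a KO name had further changes of -3.86 in Pag.B06G001435.v3.1, -3.11 in Pag.B03G000845.v3.1, -0.38 in Pag.B02G002262.v3.1 and -0.38 in Pag.A02G000065.v3.1.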

How the results depend on the processing

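Between 6143 and 9738 genes were higher and between 7090 and 11323 lower over all alternatives, the lowest counts coming from the filter on a mean of at least 5 FPKM, which tests fewer genes. With 1 library left out at a time, 8039 to 8255 genes were higher, 9155 to 9462 lower, and 27267 to 28380 differed between day 6 and day 3. These fits kept 16865 to 17021 of the 19263 calls, and none turned its sign. That comparison of day 6 with day 3 gave 28471 genes, 18398 of them with a mean of at least 5 FPKM, and the 6 libraries alone give no value for it. Counting identical genes once, an alternative chosen after seeing the data, gave 8893 higher and 10217 lower. With the replicate number as a block, 8708 genes were higher, 10027 lower and 28245 different on day 6. Same-numbered libraries of the 2 days hardly deviated together (r of 0.00348, 0.0539 and 0.000289), against -0.0314 to 0.028 for differently numbered ones. Deviations within a day sum to 0 over its 3 libraries, so these r cannot decide whether libraries are paired. Medians that turned were small or rested on few genes. They are -0.14 for terpenes, -0.047 for guard cell markers and -0.55 for AOS at a mean of at least 5 FPKM, -0.015 for guard cell markers, -0.28 for asparagine synthase and -0.01 for FAR with no filter, and -0.067 for AOS without replicate 1 of day 0, where the other such values reached 0.172; the cause was not tested. Of 167 genes followed through the alternatives, 9 lost their call in at least 1 and none turned. Beside those given above they are LHCB7 Pag.A05G002610.v3.1, atpF Pag.A06G000385.v3.1, rpsQ Pag.A01G002093.v3.1 and SAUR Pag.A09G001220.v3.1. Low FPKM values limit the precision of low genes, and the depth behind them is unknown.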

Other observations

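The unannotated genes Pag.B15G000560.v3.1 and Pag.A15G000524.v3.1, which rose by 6.29 and 5.52 on the log2 scale, carry the ID numbers that follow those of the malate synthase genes Pag.B15G000559.v3.1 and Pag.A15G000523.v3.1, which rose by 2.05 and 0.95. The tables used here give no coordinates, so whether the genes are neighbours was not tested. In the same way, the methionine gamma-lyase genes Pag.A03G000355.v3.1 and Pag.B03G002076.v3.1 follow Pag.A03G000354.v3.1 and Pag.B03G002075.v3.1 of the same KO name, which were not called and lay at 4.20 to 5.04 FPKM and 1.94 to 2.08 FPKM on day 3, against 3.6 to 4.47 FPKM and 1.12 to 2.87 FPKM on day 0.

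Among 2021 KO names with at least 4 tested genes, every tested gene rose in 55 names and every one fell in 80, none was called in 242, and genes were called in both directions in 679.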
